A study of Mus musculus with 6 samples.

Results

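Ribosome biogenesis and nucleolar factors are the proteins that transcribe ribosomal RNA, modify and cut it, and assemble it with ribosomal proteins into the small and the large subunit. The list held 54 genes, taken by gene name from the reference rows of the deposited tables. All 54 were found among 47643 reference genes, and all 54 were among the 12186 genes tested, which had at least 1 FPKM in 3 or more libraries. FPKM is the number of fragments scaled to transcript length in kilobases and to library size. The genes had been put on the list with their levels in these libraries already known, so their differences between the groups are given below as a description, and the p-values printed with them are not independent evidence.

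The libraries came from natural regulatory T cells (nTregs), CD4 T cells defined by the transcription factor Foxp3 that restrain immune responses. The tested cells received an EP4 agonist at 100 nM for 6 h (EP4 is 1 of the receptors of prostaglandin E2), and the vehicle cells received DMSO for the same time. There were 3 libraries in each group. In both groups the cells came from spleens of C57BL/6 mice of the Foxp3-DTR/EGFP genotype, in which Foxp3-expressing cells also carry a diphtheria toxin receptor and EGFP, had been activated for 2 days with antibodies to CD3 and CD28 and with IL-2, and were sorted on GFP after the treatment. The age of the mice is not stated in the labels, nor is the origin of the 3 replicates as separate mice, cultures or aliquots. The p-values therefore measure only how far these libraries spread, possibly for technical reasons. In bulk libraries such as these, fewer cells of a type and less RNA per cell cannot be told apart.

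The 3 agonist libraries rested on 4.98, 4.32 and 4.86 gigabases of aligned sequence, and the 3 vehicle libraries on 4.95, 5.65 and 4.49 gigabases. Foxp3 lay at 124 to 154 FPKM in agonist libraries and 109 to 153 FPKM in vehicle libraries. All 8 markers of T cells and regulatory T cells were at 1 FPKM or more. The 6 myeloid markers summed to between 0.221 and 0.568 FPKM in agonist libraries and between 0.166 and 1.004 FPKM in vehicle libraries. The 4 dendritic cell markers summed to between 0.136 and 0.941 FPKM in agonist libraries and between 0.105 and 0.581 FPKM in vehicle libraries. S100a8 of the myeloid and Siglech of the dendritic markers were listed at 0 in all 6 libraries. The 5 B cell markers summed to between 3.69 and 6.20 FPKM in agonist libraries and between 5.64 and 5.93 FPKM in vehicle libraries. For 2 CD8 T cell markers the sums were 4.531 to 6.405 FPKM with the agonist and 3.885 to 5.425 FPKM with vehicle. Those of 4 NK cell markers were 0.3048 to 3.881 and 0.5245 to 3.471 FPKM, and those of 3 erythroid markers 0.601 to 2.625 and 1.467 to 5.757 FPKM, in the same order.

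Ribosome assembly starts in the nucleolus, where RNA polymerase I copies the ribosomal DNA into 1 long precursor. Small nucleolar RNAs then guide chemical changes of that precursor. Box C/D particles place methyl groups on ribose and box H/ACA particles convert uridine to pseudouridine. Large complexes fold and cut the precursor, the small and the large subunit part ways, and both are exported. T cells need many ribosomes when they grow after activation.

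Several of the genes also carry small nucleolar RNA genes within their span. In GENCODE M21 on GRCm38, 7 of the 54 genes (Dkc1, Gnl3, Ncl, Nop56, Nop58, Tsr1 and Wdr43) hold 21 of them on the same strand. Of the 21, 11 lie clear of every annotated exon of the host and so in introns, in 6 of the genes, and 10 overlap an exon of at least 1 host transcript, among them all those in Gnl3. The 4 box C/D guides below lie in introns of 4 of the listed genes and hold matches to both a C box and a D box. Not all of the 11 do, as Snord70 in Nop58 matches neither. They are written 5′ to 3′ on the transcribed strand with the C box (ATGATGA or GTGATGA) and the D box (CTGA) in capitals. Snord110 lies in Nop56 at chr2:130275506-130275573 on the plus strand, and Snord82 lies in Ncl at chr1:86356261-86356330 on the minus strand. Snord11 lies in Nop58 at chr1:59704790-59704873 and Snord92 in Wdr43 at chr17:71631281-71631365, both on the plus strand.
Snord110: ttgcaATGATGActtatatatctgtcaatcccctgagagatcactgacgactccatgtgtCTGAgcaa
Snord82: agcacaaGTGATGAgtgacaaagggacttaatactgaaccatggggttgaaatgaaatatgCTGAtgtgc
Snord11: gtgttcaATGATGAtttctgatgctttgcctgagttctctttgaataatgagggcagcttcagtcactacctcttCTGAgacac
Snord92: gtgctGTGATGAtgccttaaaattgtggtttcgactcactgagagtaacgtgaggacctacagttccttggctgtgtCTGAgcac

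The listed genes were lower with the agonist almost throughout, by a modest amount. Their median log2 fold change, agonist over vehicle on the log2(FPKM + 1) scale, was -0.39, with a range from -0.79 for Gnl3 to 0.00 for Polr1c, against a median of -0.03 over all tested genes. The log2 fold change was negative for 53 of the 54, against 57.2% of all tested genes. In the 3 pairs of libraries with the same replicate number the median was -0.34, -0.40 and -0.40, and 53 genes were lower in all 3 pairs, against 31.6% of all tested genes. The groups did not overlap for 23 genes, with the agonist lower, against 12.1% of all tested genes.

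None of the 54 genes passed limma's test with Benjamini-Hochberg adjustment over all tested genes at 0.05, with adjusted p from 0.140 to 0.995, and 35 were lower at an unadjusted p under 0.05, against 8.74% of all tested genes. The share of all tested genes that passed was 0.0492% lower and 0.345% higher with the agonist, or 6 and 42 genes. With the replicate number as a block in the fit, 37 of the 54 fell and 0 rose, against 6.41% of all tested genes lower and 4.09% higher. With the block and quantile normalization 31 fell, against 3.92% of all tested genes. The blocked count dropped when a pair was left out: 11 of the 54 genes fell without pair 1 and 0 without pair 2 or pair 3. Those fits have fewer libraries and less power, so the drop cannot show that the result rests on any pair. Of the 12186 tested genes, 90 passed as lower without pair 1 and 0 without pair 2 or pair 3. Without pair 2 and pair 3, 44 and 47 listed genes were lower at an unadjusted p under 0.05. Among all tested genes, 2557 and 2431 had an unadjusted p under 0.05 in those fits, in either direction. Below, "fell" refers to the fit with the block.

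The 6 libraries did not separate cleanly into the groups for these genes. The FPKM of the 54 genes summed to 1266, 1623 and 1418 in agonist replicates 1, 2 and 3, against 1546, 2149 and 1919 in vehicle replicates 1, 2 and 3. Agonist replicate 1 was the lowest library for 48 genes and vehicle replicate 2 the highest for 47, against 23.4% and 21.0% of all tested genes. Vehicle replicate 1 lay near the agonist libraries, and agonist replicate 2 was above it for 29 genes. All 3 agonist libraries lay below vehicle replicates 2 and 3 for 52 genes. Shares of all tested genes were not counted for these 29 and 52 genes, and the latter count leaves out vehicle replicate 1. The share of summed FPKM in ribosomal RNA genes also differed. These were taken by name, as names with "rRNA", Rn45s, mt-Rnr1 and mt-Rnr2. The share was 0.142, 0.169 and 0.109% in agonist replicates 1, 2 and 3, against 0.0895, 0.107 and 0.0928% in vehicle replicates 1, 2 and 3, without overlap. All mitochondrial genes took 6.16, 6.80 and 5.88% in agonist libraries, against 4.51, 5.60 and 6.09% in vehicle libraries, higher with the agonist in pairs 1 and 2. The part of these shares in the result was not tested.

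**Figure D1:**
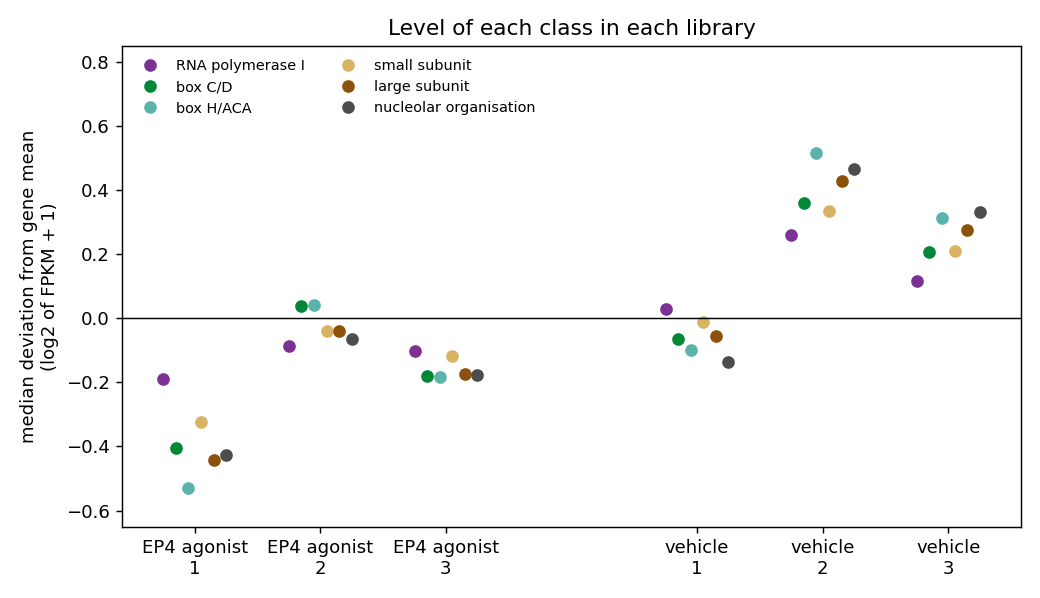
Median deviation of each class of genes from the gene's own mean, in log2(FPKM + 1), in the 3 EP4 agonist libraries (left) and the 3 vehicle libraries (right). One point stands for 1 class in 1 library. Agonist replicate 1 is the lowest library and vehicle replicate 2 the highest for every class, while agonist replicate 2 and vehicle replicate 1 lie close to each other.

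Among the factors of RNA polymerase I, 2 of 5 fell, against 6.41% of all tested genes. With the block and quantile normalization 1 of 5 fell, against 3.92% of all tested genes. The median log2 fold change of the class was -0.26, and the median level was 11.8 FPKM with the agonist and 13.9 FPKM with vehicle. Ubtf (ENSMUSG00000020923.17, chromosome 11, 102304560 to 102319742), which binds ribosomal DNA and keeps it open for transcription, had 63.4, 62.9 and 60.2 FPKM in agonist libraries, against 71.9, 78.0 and 73.9 FPKM in vehicle libraries. Both groups stayed apart, and the libraries within each lay close together. Its log2 fold change was -0.26 ± 0.07 (SE; limma adjusted p = 0.198, 0.0396 with the block, 0.0283 to 0.555 over the alternatives). With the block and quantile normalization the adjusted p of Ubtf was 0.0909. Its low end came from a blocked fit on loci assembled from each library's own reads. That fit was added after seeing the data, and it also gave many of the low ends below. Polr1a, the catalytic subunit, averaged 4.34 ± 0.915 FPKM with the agonist and 6.48 ± 1.14 FPKM with vehicle (SD, n = 3 each), and it fell as well.

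Polr1b, the second large subunit of the enzyme, had 3.34, 4.39 and 4.24 FPKM in agonist libraries, against 4.86, 8.92 and 5.48 FPKM in vehicle libraries. No agonist library reached a vehicle library, and vehicle replicate 2 stood above the other 5 libraries. Its log2 fold change was -0.54 ± 0.20 (SE; limma adjusted p = 0.314, 0.0632 with the block, 0.0236 to 0.643 over the alternatives). Polr1c, a subunit that RNA polymerase III also uses, had 26.4, 27.0 and 24.5 FPKM in agonist libraries, against 26.5, 28.3 and 23.1 FPKM in vehicle libraries. The groups overlapped fully, and the log2 fold change was 0.00 ± 0.09 (SE; limma adjusted p = 0.995). Rrn3, which brings the polymerase to the promoter, averaged 11.8 ± 0.662 FPKM with the agonist and 13.9 ± 1.61 FPKM with vehicle (SD, n = 3 each), and it did not pass with the block.

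**Figure D2:**
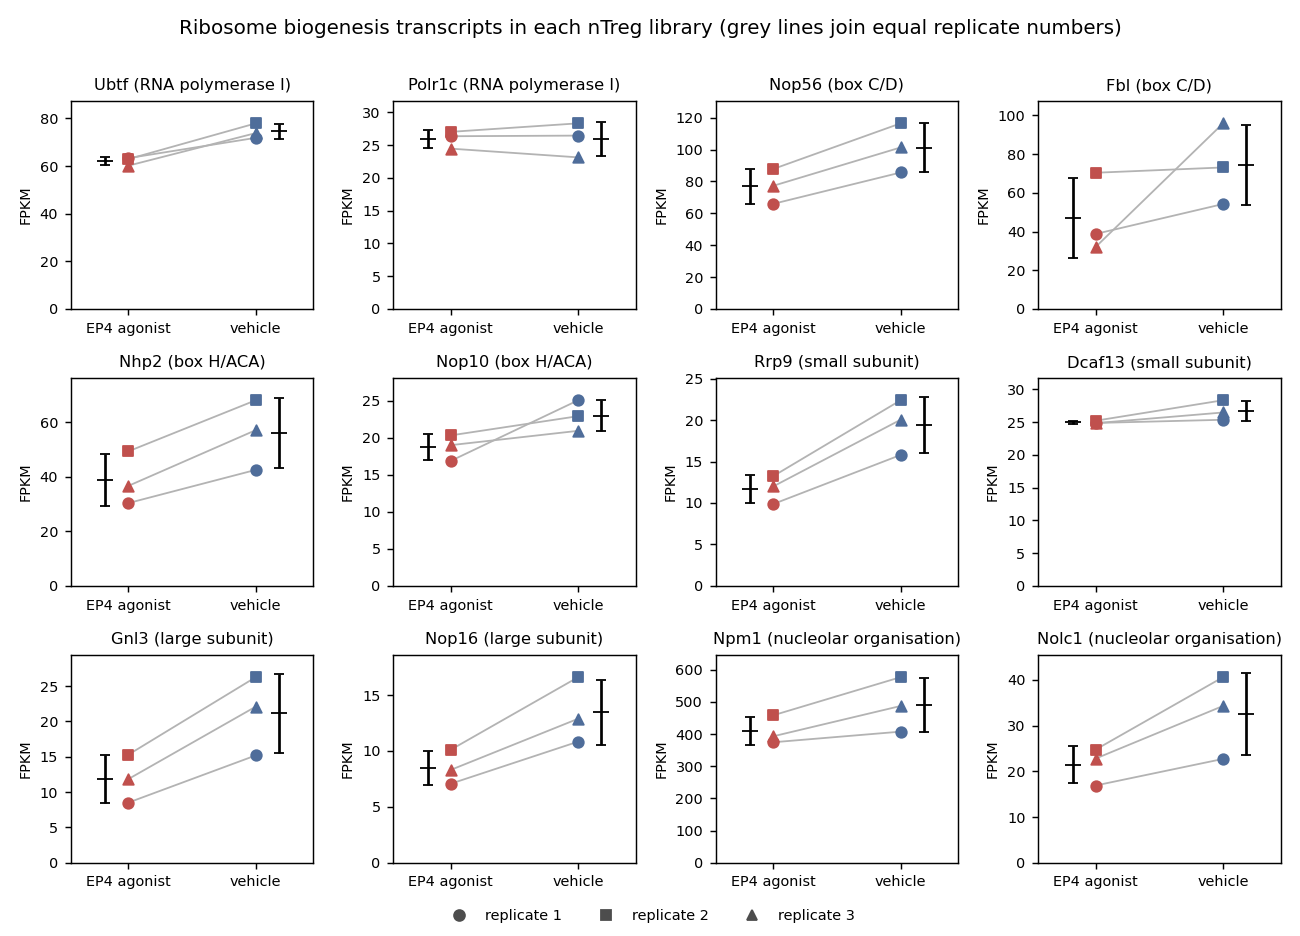
FPKM of selected genes of each class in every library, with the 3 EP4 agonist libraries left of the 3 vehicle libraries. Points are libraries, and the bars mark the mean and SD. Grey lines join libraries with the same replicate number. Ubtf, Nop10, Rrp9, Dcaf13 and Nop16 separate the groups, while the groups of Polr1c, Nop56, Fbl, Nhp2, Gnl3, Npm1 and Nolc1 overlap.

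Among the box C/D proteins the median log2 fold change was -0.39, and 1 of 3 fell, against 6.41% of all tested genes. Nop56, a core protein that holds the guide RNA, had 65.9, 87.8 and 77.2 FPKM in agonist libraries, against 85.6, 116 and 101 FPKM in vehicle libraries. The groups overlapped through agonist replicate 2 and vehicle replicate 1, and within each pair the agonist library was lower. Its log2 fold change was -0.39 ± 0.15 (SE; limma adjusted p = 0.307, 0.0187 with the block, 0.0187 to 0.678 over the alternatives). Nop58, its partner in the particle, had 10.7, 14.3 and 14.2 FPKM in agonist libraries, against 12.3, 17.2 and 16.0 FPKM in vehicle libraries. Its groups overlapped, and the log2 fold change was -0.20 ± 0.16 (SE; limma adjusted p = 0.616, 0.0698 with the block, 0.0205 to 0.917 over the alternatives).

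Fbl, the methyltransferase fibrillarin, had 38.8, 70.4 and 32.0 FPKM in agonist libraries, against 54.2, 73.1 and 95.9 FPKM in vehicle libraries. The libraries scattered widely in both groups and overlapped, with a log2 fold change of -0.69 ± 0.31 (SE; limma adjusted p = 0.379, 0.235 with the block, 0.0127 to 0.699 over the alternatives). The tables also hold loci assembled from each library's own reads, and the one over Fbl had 83.7, 106 and 78.0 FPKM in agonist libraries, against 105, 144 and 117 FPKM in vehicle libraries. On that locus the log2 fold change was -0.45 and the adjusted p was 0.0127 with the block. The assembled locus averaged 1.74 times the reference row of Fbl, while 49 of the 51 genes with a matching locus in all 6 libraries lay within 10% of theirs.

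Among the box H/ACA proteins the median log2 fold change was -0.49, and 3 of 4 fell, against 6.41% of all tested genes. Dkc1, the pseudouridine synthase dyskerin, averaged 21.9 ± 3.19 FPKM with the agonist and 31.5 ± 7.26 FPKM with vehicle (SD, n = 3 each). Nhp2, a core protein of the particle, had 30.4, 49.3 and 36.7 FPKM in agonist libraries, against 42.5, 68.1 and 57.1 FPKM in vehicle libraries. Agonist replicate 2 was above vehicle replicate 1, and each agonist library was below its own pair. The log2 fold change of Nhp2 was -0.52 ± 0.22 (SE; limma adjusted p = 0.351, 0.0179 with the block, 0.0179 to 0.734 over the alternatives).

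Gar1, another core protein of the particle, had 17.9, 30.9 and 24.2 FPKM in agonist libraries, against 26.5, 40.2 and 36.6 FPKM in vehicle libraries. Its groups overlapped in the same 2 libraries, and the log2 fold change was -0.50 ± 0.22 (SE; limma adjusted p = 0.376, 0.0208 with the block, 0.0132 to 0.750 over the alternatives). Nop10, the smallest core protein, had 16.9, 20.3 and 19.0 FPKM in agonist libraries, against 25.1, 22.9 and 20.9 FPKM in vehicle libraries. The groups of Nop10 did not overlap, and unlike most of the list its highest library was vehicle replicate 1. Its log2 fold change was -0.28 ± 0.10 (SE; limma adjusted p = 0.293, 0.130 with the block, 0.0941 to 0.624 over the alternatives).

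Of the 18 small subunit factors 12 fell, against 6.41% of all tested genes, and the median log2 fold change of the 18 was -0.36. Rrp9 (ENSMUSG00000041506.14, chromosome 9, 106475963 to 106485424), a protein of the U3 particle that directs early cuts of the precursor, had 9.87, 13.2 and 11.99 FPKM in agonist libraries, against 15.8, 22.4 and 20.1 FPKM in vehicle libraries. Every agonist library was below every vehicle library. Its log2 fold change was -0.68 ± 0.15 (SE; limma adjusted p = 0.140, 0.0142 with the block, 0.00507 to 0.395 over the alternatives).

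Noc4l, a nuclear factor of small subunit maturation, had 18.5, 24.7 and 22.7 FPKM in agonist libraries, against 25.8, 35.1 and 29.7 FPKM in vehicle libraries. Here the groups did not overlap, although agonist replicate 2 came close to vehicle replicate 1, and the log2 fold change was -0.44 ± 0.14 (SE; limma adjusted p = 0.259, 0.0187 with the block, 0.00864 to 0.610 over the alternatives). Imp3, which pairs U3 with the precursor, had 23.3, 27.3 and 26.4 FPKM in agonist libraries, against 32.0, 29.7 and 26.8 FPKM in vehicle libraries. Agonist replicate 2 was above vehicle replicate 3, and the log2 fold change was -0.19 ± 0.10 (SE; limma adjusted p = 0.430, 0.240 with the block, 0.194 to 0.751 over the alternatives). Dcaf13, a processome protein, had 24.9, 25.2 and 24.8 FPKM in agonist libraries, against 25.4, 28.3 and 26.5 FPKM in vehicle libraries. Its groups did not overlap, but they were close, and the log2 fold change was -0.09 ± 0.07 (SE; limma adjusted p = 0.611, 0.281 with the block, 0.223 to 0.912 over the alternatives).

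The other small subunit factors that fell were Nop14, Wdr43, Wdr75, Utp15, Utp18, Utp20, Rrp12, Ltv1, Tsr1 and Nob1. Rrp12, an export factor, averaged 3.37 ± 0.574 FPKM with the agonist and 5.76 ± 1.40 FPKM with vehicle, for a log2 fold change of -0.62. Nob1, the nuclease that makes the final cut of the small subunit RNA, averaged 15.6 ± 2.36 FPKM with the agonist and 20.0 ± 1.54 FPKM with vehicle (SD, n = 3 each). Utp15 was at adjusted p = 0.0555 with the block and quantile normalization. Heatr1, Imp4, Ddx10 and Bysl did not pass with the block, with log2 fold changes of -0.24, -0.23, -0.25 and -0.36.

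Of the 19 large subunit factors 16 fell, against 6.41% of all tested genes, and the median log2 fold change of the 19 was -0.45. Gnl3 (ENSMUSG00000042354.6, chromosome 14, 31012434 to 31019089), the nucleolar GTPase nucleostemin, had 8.51, 15.3 and 11.8 FPKM in agonist libraries, against 15.2, 26.3 and 22.1 FPKM in vehicle libraries. Agonist replicate 2 was level with vehicle replicate 1, and the other libraries kept the groups apart. Its log2 fold change was -0.79 ± 0.24 (SE; limma adjusted p = 0.238, 0.0142 with the block, 0.00401 to 0.585 over the alternatives). Nle1 (ENSMUSG00000020692.14, chromosome 11, 82900768 to 82908411), which helps release early factors from the large subunit, had 5.50, 7.32 and 6.31 FPKM in agonist libraries, against 8.97, 10.9 and 9.13 FPKM in vehicle libraries. The groups did not overlap, and its log2 fold change was -0.53 ± 0.12 (SE; limma adjusted p = 0.148, 0.0194 with the block, 0.00755 to 0.418 over the alternatives).

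Bop1, which works with Pes1 and Wdr12 in the PeBoW complex, had 18.5, 24.2 and 22.1 FPKM in agonist libraries, against 24.9, 37.2 and 33.1 FPKM in vehicle libraries. The groups did not overlap, with vehicle replicate 1 just above agonist replicate 2, and the log2 fold change was -0.52 ± 0.16 (SE; limma adjusted p = 0.231, 0.0187 with the block, 0.00831 to 0.573 over the alternatives). Pes1 and Wdr12 fell too, with log2 fold changes of -0.27 and -0.44, but with quantile normalization added to the block the adjusted p of Pes1 was 0.0567. Nop2, which methylates a cytosine of the large subunit RNA, had 15.8, 22.0 and 20.0 FPKM in agonist libraries, against 22.2, 31.9 and 27.9 FPKM in vehicle libraries. Its groups met at agonist replicate 2 and vehicle replicate 1 without overlap, and the log2 fold change was -0.48 ± 0.16 (SE; limma adjusted p = 0.272, 0.0166 with the block, 0.00755 to 0.638 over the alternatives).

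Nop16, a nucleolar protein of large subunit assembly, had 7.07, 10.1 and 8.30 FPKM in agonist libraries, against 10.8, 16.6 and 12.9 FPKM in vehicle libraries. The groups did not overlap, and the log2 fold change was -0.60 ± 0.17 (SE; limma adjusted p = 0.210, 0.0166 with the block, 0.00755 to 0.527 over the alternatives). Mrto4, which holds the place of a stalk protein in the pre-ribosome, had 11.6, 18.8 and 16.5 FPKM in agonist libraries, against 17.7, 29.0 and 23.2 FPKM in vehicle libraries. Agonist replicate 2 was above vehicle replicate 1, and the log2 fold change was -0.55 ± 0.22 (SE; limma adjusted p = 0.328, 0.0166 with the block, 0.00755 to 0.702 over the alternatives).

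Noc2l, a partner of Noc3l in the pre-ribosome, had 24.6, 34.8 and 32.5 FPKM in agonist libraries, against 34.5, 54.7 and 46.2 FPKM in vehicle libraries. Its groups overlapped only through agonist replicate 2 and vehicle replicate 1, and the log2 fold change was -0.54 ± 0.19 (SE; limma adjusted p = 0.293, 0.0174 with the block, 0.00755 to 0.655 over the alternatives). Nip7, a factor of precursor processing, had 8.30, 9.75 and 8.60 FPKM in agonist libraries, against 9.06, 12.2 and 11.2 FPKM in vehicle libraries. Agonist replicate 2 again exceeded vehicle replicate 1, and the log2 fold change was -0.25 ± 0.12 (SE; limma adjusted p = 0.412, 0.0827 with the block, 0.0585 to 0.792 over the alternatives). Rrs1, Rrp15, Ebna1bp2, Ddx18, Ddx56, Ftsj3 and Gtpbp4 fell, with log2 fold changes between -0.57 for Rrp15 and -0.26 for Gtpbp4. With the block and quantile normalization 12 of the 19 large subunit factors fell, against 3.92% of all tested genes. Rrs1, Ebna1bp2 and Gtpbp4 were then at adjusted p = 0.0575, 0.0647 and 0.0592, and Pes1 did not pass either. Rrp1b and Noc3l did not pass with the block, and both had a log2 fold change of -0.32.

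**Figure D3:**
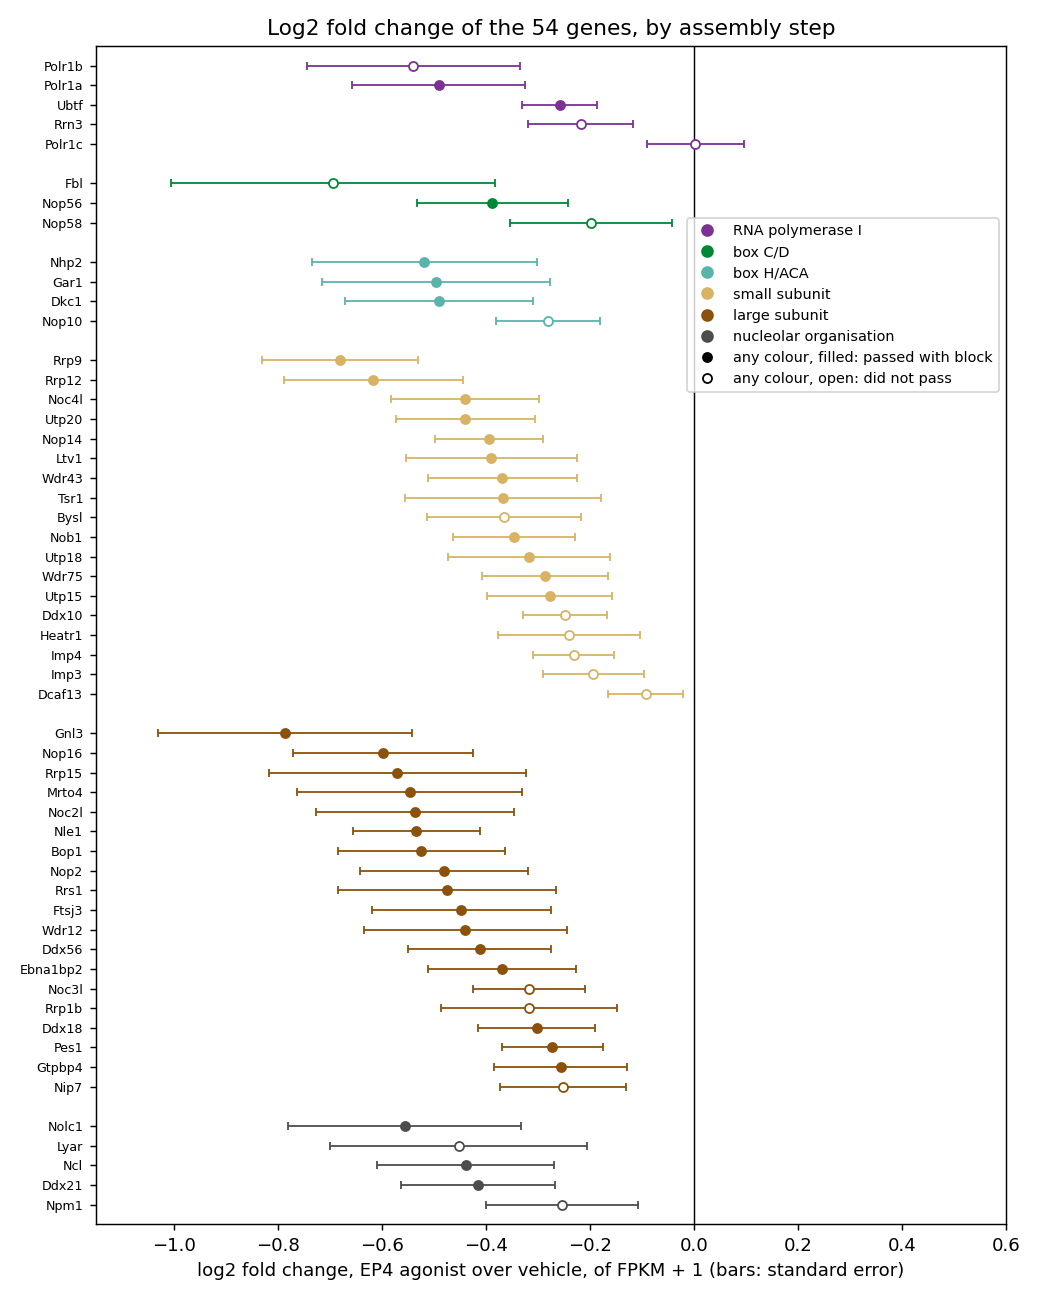
Log2 fold change, EP4 agonist over vehicle, of log2(FPKM + 1) for each of the 54 genes, grouped by class, with bars for the SE of the fit without the block. Filled points passed with the replicate block. All but Polr1c lie below 0, and Gnl3 lies lowest at -0.79.

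The 5 proteins that organise the nucleolus had a median log2 fold change of -0.44, and 3 of them fell, against 6.41% of all tested genes. Npm1, the abundant chaperone nucleophosmin, had 374, 458 and 393 FPKM in agonist libraries, against 408, 577 and 487 FPKM in vehicle libraries. The groups overlapped, and the log2 fold change was -0.25 ± 0.15 (SE; limma adjusted p = 0.481, 0.0754 with the block, 0.0523 to 0.862 over the alternatives). Nolc1, a chaperone of small nucleolar particles, had 16.9, 24.8 and 22.8 FPKM in agonist libraries, against 22.7, 40.6 and 34.3 FPKM in vehicle libraries. Vehicle replicate 1 lay among the agonist libraries, and the log2 fold change was -0.56 ± 0.22 (SE; limma adjusted p = 0.335, 0.0210 with the block, 0.00987 to 0.713 over the alternatives). Ncl, the RNA-binding protein nucleolin, and the helicase Ddx21 fell, with log2 fold changes of -0.44 and -0.41. Lyar did not pass with the block, with a log2 fold change of -0.45.

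The pathway beyond the list was read from 102 further tested genes picked by role, with earlier results of these data known. Their median log2 fold change was -0.22, between that of the list and that of all tested genes. None passed without the block, and 41 had an unadjusted p under 0.05 and a lower level with the agonist, against 8.74% of all tested genes. With the block 29 fell and 0 rose, against 6.41% of all tested genes lower and 4.09% higher. Npm3, a histone chaperone related to Npm1, had 42.7, 65.1 and 54.3 FPKM in agonist libraries, against 71.9, 89.2 and 85.3 FPKM in vehicle libraries, without overlap (log2 fold change -0.61). Mybbp1a averaged 26.0 ± 4.39 FPKM with the agonist and 39.2 ± 9.19 FPKM with vehicle, and the RNA acetyltransferase Nat10 averaged 6.81 ± 0.840 FPKM with the agonist and 10.5 ± 2.15 FPKM with vehicle (SD, n = 3 each). At the other end, Taf1b, Znhit3 and Ddx52 had log2 fold changes of 0.09, 0.06 and 0.05 and did not pass.

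**Figure D4:**
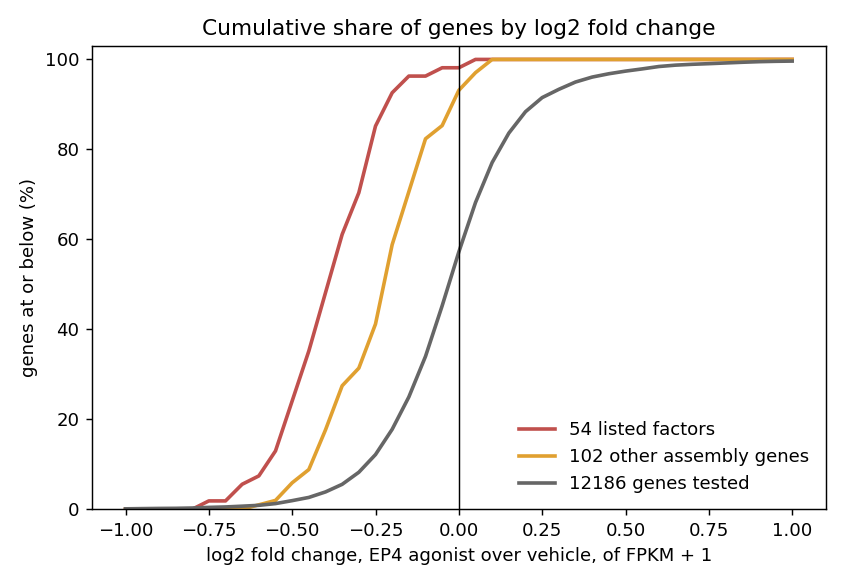
Cumulative share of genes (%) at or below each log2 fold change, EP4 agonist over vehicle, for the 54 listed genes, the 102 other assembly genes and the 12186 genes tested. The medians are -0.39, -0.22 and -0.03 in that order.

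The listed genes lie on 18 chromosomes, with at most 9 on 1 of them. Of the 54, 9 overlap an expressed gene on the opposite strand (Nhp2, Bop1, Bysl, Nop56, Dkc1, Tsr1, Rrp9, Gnl3 and Noc2l). The strand setting used for quantification is not stated in the labels, so reads of those partners may be included. On the same strand, 6 of the listed genes (Nop58, Ncl, Nop56, Tsr1, Wdr43 and Gnl3) overlap expressed small nucleolar RNA genes. A strand setting would not keep those reads apart. Promoter sequence from RefSeq on GRCm38.p6, 250 bases before to 50 after the start, was found for 48 of the 54 genes. The palindrome CACGTG, the E-box that Myc and other helix-loop-helix factors can bind, occurred in 10 of these 48 promoters (20.8%), in 16 of 86 promoters of the other assembly genes (18.6%) and in 980 of 7977 promoters of tested genes (12.3%). TGACGTCA, the cyclic AMP response element and likewise the same on both strands, occurred in 1 of 48 (2.08%), in Noc4l, against 3.91% of promoters of tested genes. These matches are descriptions of letters in a window and not of binding.

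The 110 bases upstream of 4 starts are shown 5′ to 3′ on the gene's strand, with CACGTG in capitals. Nop2, Rrn3 and Utp18 hold the motif in this window, and Gnl3, the gene with the lowest fold change, does not. The windows are chr6:125131773-125131882 (plus) for Nop2, chr16:13780589-13780698 (plus) for Rrn3, chr11:93885767-93885876 (minus) for Utp18 and chr14:31019132-31019241 (minus) for Gnl3.
Nop2: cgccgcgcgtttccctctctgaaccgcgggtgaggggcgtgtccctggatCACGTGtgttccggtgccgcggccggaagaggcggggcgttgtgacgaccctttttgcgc
Rrn3: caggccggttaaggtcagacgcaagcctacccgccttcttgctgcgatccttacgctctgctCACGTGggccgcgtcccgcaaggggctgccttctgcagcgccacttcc
Utp18: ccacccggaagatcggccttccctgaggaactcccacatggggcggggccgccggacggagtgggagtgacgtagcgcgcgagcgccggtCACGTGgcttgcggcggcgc
Gnl3: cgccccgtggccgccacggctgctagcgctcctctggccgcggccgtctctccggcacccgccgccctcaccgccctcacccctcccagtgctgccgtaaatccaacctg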

How the data were processed

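RNA from 6 libraries was sequenced after a stranded, poly(A)-based preparation, per the labels' protocols. The submitters' processing notes name Trim Galore, HISAT2 and the mm10 build, with no versions. Which program, annotation release and strand option produced the abundances is not given in the sources used. Per the file headers, the authors deposited coverage (signal), FPKM and TPM for each feature. FPKM was used as deposited, coverage served for the aligned bases and as an alternative, and TPM was left aside. The files do not yield fragment counts, so no counting interval is given.

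From the FPKM, log2(FPKM + 1) was fitted with limma 3.58.1 (trend and robust variances, statmod 1.5.0, R 4.3.3; Python 3.11.15, pandas 2.3.3, numpy 2.4.6, matplotlib 3.10.9) for 12186 genes with at least 1 FPKM in 3 libraries, two-sided, with Benjamini-Hochberg adjustment and a threshold of 0.05. This scale understates changes of low genes. The code was tested on simulated data. Groups and replicate numbers come from the titles.

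The genes and lists were chosen with earlier results of these data known. Genes described in full were, in each class, that with the highest mean FPKM and those with the most negative and most positive fold change, then up to 12 with the smallest blocked adjusted p. Of the other pathway genes the 3 lowest and 3 highest fold changes were named. Same-numbered libraries deviated together from their group means (correlations 0.512, 0.404 and 0.321, against -0.353 to 0.00197 for other pairs). For this reason they were treated as pairs. Deviations from a group mean cancel out within the group, so the lower values of the other pairs are not separate evidence. The labels do not say what the number stands for. A block chosen from the same libraries favours small p-values. Alternatives changed the pseudocount, filter, scaling, column, variance model, block and libraries. Use of assembled loci, matched at 80% overlap both ways, was added after seeing the data. It is counted among the alternatives, and with the block it gave the low end of many ranges of adjusted p above.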

Additional observations from a re-analysis of the deposited data

How the results depend on the processing

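The median log2 fold change of the 54 genes stayed negative under every alternative run. A median is said to move where it shifts by more than the SD of its value over the 3 pairs, which is small. For the 54 genes it was -0.36 with quantile normalization (with or without the block) and -0.35 with upper quartile scaling, and leaving out libraries gave -0.51 to -0.28. Quantile normalization, again with or without the block, gave -0.19 for RNA polymerase I, -0.32 for the small subunit and -0.17 for the other pathway genes. The small subunit median was -0.33 with a filter of 5 FPKM and -0.32 with upper quartile scaling, and the large subunit median was -0.50 with a pseudocount of 0.1. Leaving out libraries gave -0.50 to -0.26 for box C/D, -0.67 to -0.33 for box H/ACA, -0.47 to -0.24 for the small subunit and -0.58 to -0.34 for the large subunit. It gave -0.62 to -0.31 for the nucleolar proteins and -0.29 to -0.18 for the other pathway genes.

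The count of listed genes that passed depends on the replicate block. It was 0 without it under every alternative, 37 lower with it, and 31 with the block and quantile normalization. With the block and assembled loci it was 42 of the 51 listed genes with a matching locus. When libraries were left out it was 0 to 11. For the other pathway genes the blocked counts were 29, 19 and 37 in the same order, the last of 88 with a matching locus. The count was 0 to 1 when single libraries and 0 to 5 when pairs were left out. Over all genes 42 were higher and 6 lower. The counts were 2 and 0 with no filter and 85 and 11 with the coverage column. They were 498 and 781 with the block, and 519 and 478 with the block and quantile normalization, each among 12186 genes. With the block and assembled loci they were 509 and 912, among only 8789 genes with a matching locus. Upper quartile scaling gave 68 higher. Leaving out single libraries gave 0 to 107 higher and 0 to 26 lower, and leaving out pairs with the block gave 0 to 151 higher (1 without pair 3) and 0 to 90 lower. Where 0 passed, 1606, 1033 and 1115 genes had an unadjusted p under 0.05 without agonist replicate 2, vehicle replicate 2 and vehicle replicate 3. The cause was not tested.

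Polr1c changed sign, at -0.0056 with the coverage column, -0.075 to 0.065 without single libraries and -0.035 to 0.036 without pairs. Znhit3 ran from -0.030 to 0.17 without single libraries and from -0.0079 to 0.13 without pairs. No other named gene changed direction. Depth in fragments is unknown, which limits what can be said of the 3 listed genes under 5 FPKM.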
